A study of Oryza sativa with 6 samples.

Results

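Leaves of rice plants that overexpressed MIR171f, the gene of a miR171 microRNA (OX), were compared with leaves of plants in which MIR171f was knocked out (KO), across every transcript of the deposited table. The comparison used 4 of the 6 libraries of the study, 2 of OX and 2 of KO, chosen by their sample labels, and the 2 libraries of nontransgenic plants (WT) served only to place the wild-type level. All 7194 listed transcripts entered, of which 7034 passed the filter on low counts and were tested.

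All plants were 4 weeks old and in a young stage, were germinated in MS culture (3 days, 28 °C), and then grew 1 to a pot of soil in a greenhouse. The OX libraries come from the lines Osa-MIR171f Ox_3 and Ox_5, and the KO libraries, from CRISPR-Cas9 mutants, are labelled Osa-mir171f K/O_2 and K/O_2_1, so the KO group may stand for 1 mutant line. The labels describe the overexpression as whole-body, and the promoter is not given in the sources used here. They also do not say whether the libraries of a group came from separate plants, and the p-values therefore reflect no more than the spread among these libraries, which may be technical. The leaf label was checked on the photosynthesis list of 43 transcripts, which holds chlorophyll-binding, Rubisco and other photosynthesis transcripts. The list summed to 66660 and 70413 CPM in OX leaves, 101464 and 99391 CPM in KO leaves and 158725 and 167482 CPM in WT leaves. CPM is the deposited count divided by the authors' effective library total and scaled to a fixed total, the same in each library, and it is not scaled to transcript length. No description among the 7194 transcripts names a microRNA, so the modified gene itself gave no check of the labels.

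MicroRNAs are short RNAs that pair with messenger RNAs and guide their cleavage or hold back their translation. The miR171 family of plants is known for pairing with transcripts of Scarecrow-like GRAS proteins, transcription regulators that act in shoot meristems, branching and the greening of leaves. An excess and a loss of the same microRNA can therefore be read against each other transcript by transcript.

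The 2 genotypes differed in a large share of the listed transcripts, and more were lower than higher in OX leaves. Of the 7034 tested transcripts, 2693 (38.3%) were called at a Benjamini-Hochberg adjusted p below 0.05 in the quasi-likelihood test of edgeR: 934 (13.3%) were higher in OX and 1759 (25%) were lower. The median log2 fold change of the called transcripts was 1.36 in size for those higher and 1.41 for those lower, and 214 and 453 of them differed by at least 4-fold. The table holds only transcripts that the authors had selected for a change in at least 1 comparison between the 3 genotypes, so these shares are among selected transcripts. In 5906 tested transcripts (84%) the 2 OX libraries did not overlap the 2 KO libraries, and this held for all 2693 called. Calls were made in 38.4% of the protein-coding and 32.6% of the 129 noncoding transcripts tested. The 4341 transcripts not called include 1738 with an unadjusted p below 0.05, and a transcript not called is not shown to be unchanged.

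The balance of higher and lower calls depended on the scaling of the libraries. Relative to the authors' effective totals, trimmed-mean (TMM) factors computed on the listed transcripts moved every OX against KO value up by 0.371 on the log2 scale, DESeq2 size factors by 0.320 and plain library totals by 0.174. The calls were then 1330 higher and 1194 lower with TMM, 1278 and 1279 with DESeq2 size factors, and 1108 and 1493 with plain totals. The median over all tested transcripts was -0.41 with the authors' totals, and the values of each group of genes below are to be read against it. Likewise, the counts of each group with the authors' totals are to be read against the 13.3% higher and 25% lower over all tested. Counts under another scaling, or without a library, are to be read against the calls over all tested under that same alternative. A move that the whole table shares is not particular to a group. Leaving out 1 OX or KO library left that group with 1 library, assumed to vary like the others, and the calls then numbered 498 higher and 1087 lower without OX library 1, 497 and 1168 without OX library 2, 504 and 1114 without KO library 1, and 502 and 1083 without KO library 2.

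**Figure D1:**
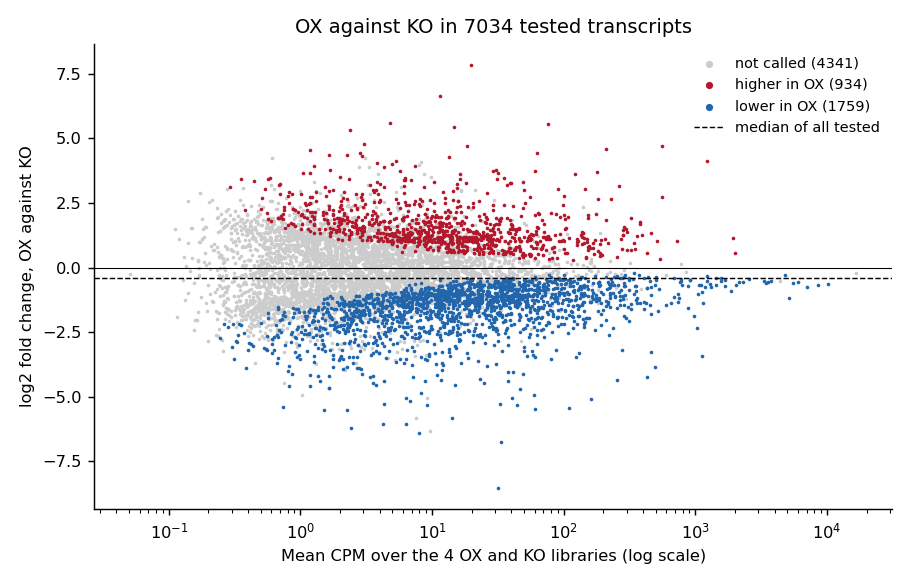
Each point is 1 of 7034 tested transcripts, with its mean CPM over the 4 OX and KO libraries on a log axis and its log2 fold change of OX against KO on the other. The 934 transcripts called higher in OX are red, the 1759 called lower are blue, the 4341 not called are grey, and the dashed line is the median of -0.41.

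Transcripts of Scarecrow-related GRAS proteins were lower in OX than in KO leaves in 4 of 9 tested cases (44.4%), and none was higher. Over all tested transcripts 25% were lower and 13.3% higher. The list was drawn by words in the descriptions and includes SCARECROW itself. No pairing site for miR171 was examined, so its members are not shown to be targets. The 9 Scarecrow-related transcripts belong to 8 genes, and both transcripts of Os01g0842200 are among the 4. Their median log2 fold change was -1.06, against -0.41 over all tested transcripts, and the count of 4 lower and 0 higher was the same under the 3 other scalings. Messenger RNA was read from whole leaves, in which fewer cells of a type and less RNA per cell cannot be told apart.

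A Scarecrow-like 9 gene, Os01g0842200 (chr1:36158308-36161507 in the file's IRGSP-1.0 coordinates), had 2 listed transcripts. The first had 198 and 198 CPM in OX leaves, 613 and 606 CPM in KO leaves and 241 and 259 CPM in WT leaves. The KO libraries were both far above the OX libraries, and the WT libraries lay between them, close to OX. OX was lower than KO (log2 fold change -1.62 ± 0.05 SE, edgeR adjusted p = 8.71e-05), and the log2 fold changes against WT were -0.34 for OX against WT and 1.28 for KO against WT. The second transcript had 20.4 and 22.7 CPM in OX leaves, 87.8 and 82.6 CPM in KO leaves and 44.3 and 36.7 CPM in WT leaves, again with WT between. Its difference was log2 fold change -1.98 ± 0.12 SE, edgeR adjusted p = 5.13e-04. Since transcripts of 1 gene share reads, these are not independent measurements.

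The Scl1 protein genes Os02g0662700 (chr2:26841588-26844306) and Os10g0551200 (chr10:21635191-21637744) are both described as similar to Scl1, a Scarecrow-like GRAS protein. Os02g0662700 had 31.1 and 34.5 CPM in OX leaves, 67.3 and 69.1 CPM in KO leaves and 66.6 and 60.6 CPM in WT leaves. OX was lower than KO (log2 fold change -1.06 ± 0.08 SE, edgeR adjusted p = 0.0013), and KO leaves lay just above the WT range. Os10g0551200 had 5.80 and 7.39 CPM in OX leaves, 15.1 and 14.5 CPM in KO leaves and 11.9 and 13.0 CPM in WT leaves, with the same order of the groups. Its call (log2 fold change -1.16 ± 0.16 SE, edgeR adjusted p = 0.00958) was lost without KO library 1 (adjusted p = 0.067) and without KO library 2 (adjusted p = 0.0601).

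The other 5 Scarecrow-related transcripts were not called between OX and KO. Scarecrow-like 6, Os06g0105350, had 5.48 and 6.93 CPM in OX leaves, 6.17 and 7.79 CPM in KO leaves and 22.1 and 24.9 CPM in WT leaves. The OX and KO libraries overlapped, and both lay far below WT, with log2 fold changes of -1.92 for OX against WT and -1.75 for KO against WT. Scarecrow-like 1, Os01g0881500, had 48.3 and 37.8 CPM in OX leaves, against 161 and 78.7 CPM in KO leaves, with KO libraries far apart from each other (log2 fold change -1.48 ± 0.53 SE, adjusted p = 0.26). The rest had log2 fold changes of -0.43 ± 0.15 SE (Os11g0705200, Scarecrow-like 9), 0.06 ± 1.21 SE (Os03g0690600) and 0.73 ± 0.42 SE (Os07g0567700, SCARECROW).

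Of 10 floral regulators tested, 5 were called lower in OX and none higher, against 25% lower over all tested transcripts. Their median log2 fold change was -2.20. SP3D, Os06g0157700 (chr6:2940004-2942452), belongs to the family of mobile flowering signals made in leaves. It had 0.315 and 0.643 CPM in OX leaves, 29.6 and 26.0 CPM in KO leaves and 40.2 and 43.3 CPM in WT leaves. It was nearly absent from both OX libraries, and KO was much nearer to WT, from which it was not called different (log2 fold change -5.84 ± 0.31 SE, edgeR adjusted p = 4.57e-04; -6.42 for OX against WT and -0.59 for KO against WT). A MADS-domain protein annotated for sexual reproduction, Os03g0215400, showed the same order with 0.252 and 0.117 CPM in OX leaves, 11.5 and 13.6 CPM in KO leaves and 17.7 and 17.0 CPM in WT leaves (log2 fold change -6.07 ± 0.32 SE, edgeR adjusted p = 3.58e-04).

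MADS-box transcription factor 14, a regulator of the floral transition (Os03g0752800), had 0.567 and 0.76 CPM in OX leaves, 4.72 and 4.35 CPM in KO leaves and 11.5 and 11.2 CPM in WT leaves. Each group stood apart, with OX lowest (log2 fold change -2.76 ± 0.22 SE, edgeR adjusted p = 0.0013). MADS18 (Os07g0605200) had 32.4 and 31.6 CPM in OX leaves, against 51.6 and 51.7 CPM in KO leaves, a smaller difference (log2 fold change -0.69 ± 0.06 SE, edgeR adjusted p = 0.00137). A further SP3D transcript, Os01g0218500, was called at -2.91 ± 0.61 SE with an adjusted p of 0.0442. The call rested on counts near the detection limit: it was lost under 10 of 13 alternatives, among them TMM (adjusted p = 0.0784), and when any 1 of the 6 libraries was left out (adjusted p = 0.0722 to 0.229). With TMM, DESeq2 size factors or plain totals, 4 floral transcripts were lower and none higher.

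**Figure D2:**
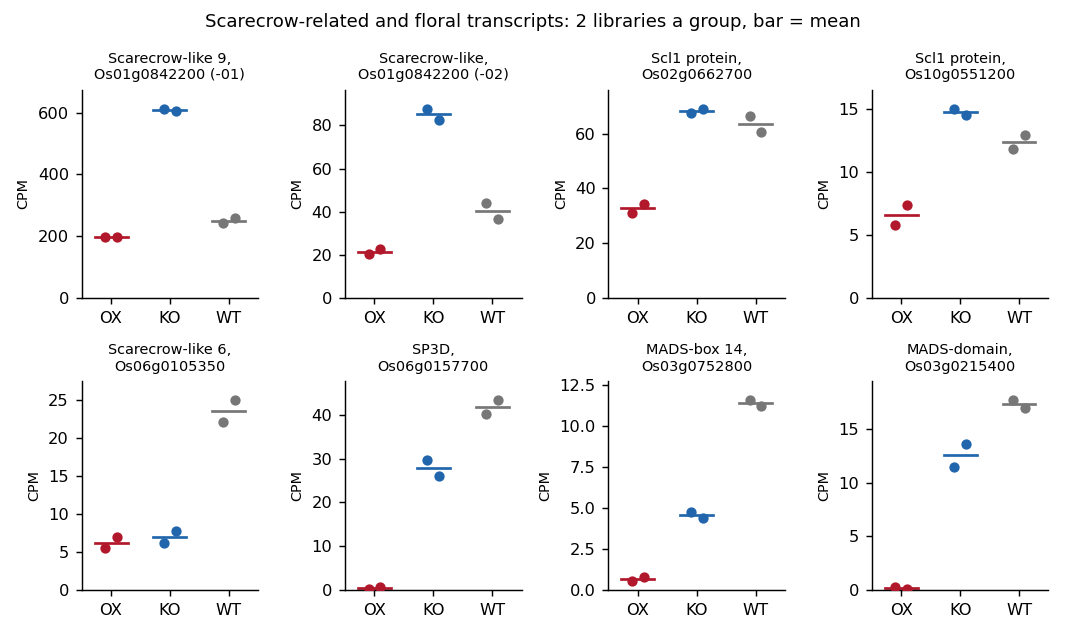
CPM of 5 Scarecrow-related and 3 floral transcripts in each library (vertical axes), with OX, KO and WT from left to right, points for libraries and short lines for the mean of 2. The OX libraries lie below the KO libraries in 7 panels and overlap them in the panel of Scarecrow-like 6.

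Calls on the short circadian clock list went the other way. Of 5 tested, 3 were higher in OX (60%, against 13.3% over all tested) and none lower, also under the 3 other scalings. The other 2, Os01g0971800 and Os01g0566050, were not called. A response regulator with a receiver domain, Os09g0532400, had 446 and 427 CPM in OX leaves, 139 and 174 CPM in KO leaves and 273 and 272 CPM in WT leaves. WT lay between (log2 fold change 1.48 ± 0.11 SE, edgeR adjusted p = 0.00126). A second response regulator, Os02g0618200, had 26.7 and 28.9 CPM in OX leaves, against 11.1 and 13.2 CPM in KO leaves (log2 fold change 1.19 ± 0.14 SE, edgeR adjusted p = 0.00524), and WT stood near KO. A CCT motif protein, Os11g0157600, had 89.1 and 83.3 CPM in OX leaves, against 48.0 and 54.3 CPM in KO leaves (log2 fold change 0.75 ± 0.08 SE, edgeR adjusted p = 0.00427). The ELF3-like Os01g0566050 had 3.75 and 2.83 CPM in OX leaves, against 2.72 and 3.14 CPM in KO leaves, and these libraries overlapped. Clock transcripts swing over the day, and the hour of harvest is not given in the sources used here, so its part in these differences was not tested.

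Flavonoid enzymes, which make pigments and protective phenolics from coumaroyl-CoA and malonyl-CoA, had more transcripts higher in OX than lower. Of 23 tested, 11 were higher (47.8%, against 13.3% over all tested), 3 lower (13%, against 25%) and 9 not called. The median log2 fold change was 0.76, against -0.41 over all tested. In the authors' own KEGG pathway map of flavonoid biosynthesis, 5 of 14 tested transcripts were higher in OX and 3 lower, with a median of 0.39. Of the 23, 12 were higher and 3 lower with each of the 3 other scalings. The number higher was 7 without OX library 2 and 6 without KO library 2.

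The entry enzyme, a chalcone synthase (Os11g0530600, chr11:19277597-19281006), had 26.3 and 30.6 CPM in OX leaves, 0.767 and 0.548 CPM in KO leaves and 2.48 and 3.23 CPM in WT leaves. The OX libraries were far above all others, and the WT libraries lay between OX and KO. The difference was log2 fold change 5.43 ± 0.26 SE, edgeR adjusted p = 2.59e-04. The log2 fold changes against WT were 3.32 for OX against WT and -2.11 for KO against WT, both called, so this transcript moved reciprocally around the wild type.

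CYP93G2 (Os06g0102100), a flavanone 2-hydroxylase that leads to C-glycosylflavones, had 29.3 and 31.2 CPM in OX leaves, 2.11 and 2.78 CPM in KO leaves and 10.5 and 10.9 CPM in WT leaves. WT lay again between OX and KO (log2 fold change 3.63 ± 0.17 SE, edgeR adjusted p = 2.59e-04). The C-glucosyltransferase of the same branch, Os06g0288300, had 9.89 and 9.50 CPM in OX leaves, against 2.53 and 2.49 CPM in KO leaves (log2 fold change 1.95 ± 0.20 SE, edgeR adjusted p = 0.00339). A flavonoid 3'-monooxygenase (Os10g0320100) had 10.5 and 11.2 CPM in OX leaves, against 1.73 and 1.21 CPM in KO leaves (log2 fold change 2.88 ± 0.28 SE, edgeR adjusted p = 0.0026). The chalcone isomerase domain protein Os12g0115700 had 7.88 and 8.39 CPM in OX leaves, against 0.46 and 0.622 CPM in KO leaves (log2 fold change 3.90 ± 0.30 SE, edgeR adjusted p = 0.0011), and a leucoanthocyanidin dioxygenase (Os09g0354300) had 4.54 and 4.79 CPM in OX leaves, against 0.805 and 0.475 CPM in KO leaves (log2 fold change 2.86 ± 0.34 SE, edgeR adjusted p = 0.00558). In all of these the OX and KO libraries were well apart.

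The 3 flavonoid transcripts that fell were a further chalcone isomerase domain protein, a flavanone 3-hydroxylase-like protein and a dihydroflavonol-4-reductase. The isomerase domain protein Os06g0203600 had 15.0 and 14.9 CPM in OX leaves, 33.8 and 31.9 CPM in KO leaves and 2.25 and 2.18 CPM in WT leaves (log2 fold change -1.13 ± 0.10 SE, edgeR adjusted p = 0.00172), both genotypes being above WT. The flavanone 3-hydroxylase-like Os03g0122300 had 6.46 and 4.65 CPM in OX leaves, against 17.3 and 15.1 CPM in KO leaves (log2 fold change -1.54 ± 0.21 SE, edgeR adjusted p = 0.00892), and lost its call without KO library 1 (adjusted p = 0.0688). Dihydroflavonol-4-reductase, Os03g0184550, had 0.725 and 0.702 CPM in OX leaves, against 2.49 and 2.92 CPM in KO leaves (log2 fold change -1.92 ± 0.26 SE, edgeR adjusted p = 0.00966). It lost its call without OX library 1 (adjusted p = 0.075), OX library 2 (0.0769) or KO library 2 (0.061).

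The general phenylpropanoid pathway supplies flavonoids and lignin. On the list drawn for it, 14 of 31 tested transcripts were higher in OX (45.2%, against 13.3% over all tested). The number lower was 5 (16.1%, against 25%), and the median log2 fold change was 0.95. With the other scalings 14 or 15 were higher and 4 or 5 lower. Without KO library 1, 9 were higher, and without OX library 1, 3 were lower. The tilt was not seen in the authors' own KEGG pathway map of phenylpropanoid biosynthesis. There 16 of 53 tested transcripts were higher in OX and 16 lower, with a median of -0.59, and 17 and 8 with TMM. Phenylalanine ammonia-lyase, the first enzyme, was higher in 5 of its 9 tested transcripts, and the other 4 were not called. Os04g0518400 had 104 and 112 CPM in OX leaves, against 33.9 and 34.1 CPM in KO leaves (log2 fold change 1.67 ± 0.10 SE, edgeR adjusted p = 4.85e-04), and Os02g0627100 had 36.6 and 36.0 CPM in OX leaves, against 9.86 and 10.5 CPM in KO leaves (log2 fold change 1.83 ± 0.12 SE, edgeR adjusted p = 6.62e-04). In both, KO was in turn above WT, by 1.83 and 1.62 on the log2 scale.

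Cinnamate-4-hydroxylase (Os01g0820000), the second enzyme, had 4.57 and 5.70 CPM in OX leaves, 0.767 and 0.658 CPM in KO leaves and 1.70 and 1.63 CPM in WT leaves. This transcript moved reciprocally, with WT between (log2 fold change 2.84 ± 0.26 SE, edgeR adjusted p = 0.0022). Caffeoyl-CoA O-methyltransferase 2 (Os08g0498100) and a caffeic acid 3-O-methyltransferase (Os08g0157500) methylate lignin precursors. The caffeoyl-CoA enzyme's transcript had 81.1 and 82.0 CPM in OX leaves, against 34.0 and 34.4 CPM in KO leaves (log2 fold change 1.25 ± 0.06 SE, edgeR adjusted p = 2.98e-04), and the caffeic acid enzyme's had 120.1 and 127 CPM in OX leaves, against 57.5 and 62.6 CPM in KO leaves (log2 fold change 1.04 ± 0.08 SE, edgeR adjusted p = 9.83e-04). Lower in OX were the hydroxycinnamoyltransferase Os02g0611800, with 27.5 and 30.1 CPM in OX leaves, against 68.4 and 65.0 CPM in KO leaves (log2 fold change -1.21 ± 0.08 SE, edgeR adjusted p = 7.41e-04), and the cinnamyl alcohol dehydrogenase Os09g0400300, with 103 and 108 CPM in OX leaves, against 179 and 178 CPM in KO leaves (log2 fold change -0.75 ± 0.06 SE, edgeR adjusted p = 0.00142).

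Starch and sucrose metabolism was also tilted towards OX: 19 of 37 tested transcripts were higher in OX (51.4%, against 13.3% over all tested). The number lower was 7 (18.9%, against 25%), and the median log2 fold change was 0.91. With each of the 3 other scalings 20 were higher and 5 lower. The number lower was 4 without OX library 1, OX library 2 or KO library 1. The rises included synthesis, branching, debranching and breakdown of starch.

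ADP-glucose pyrophosphorylase, which makes the sugar nucleotide for starch, had 404 and 399.5 CPM in OX leaves, 15.8 and 17.3 CPM in KO leaves and 3.56 and 2.60 CPM in WT leaves for Os05g0580000. OX was far above KO, and KO was above WT (log2 fold change 4.60 ± 0.15 SE, edgeR adjusted p = 1.26e-04). Soluble starch synthase I (Os06g0160700, chr6:3079296-3086808) had 292 and 278 CPM in OX leaves, 68.2 and 68.0 CPM in KO leaves and 148 and 136 CPM in WT leaves, with WT between (log2 fold change 2.07 ± 0.06 SE, edgeR adjusted p = 8.71e-05). Granule-bound starch synthase Ib, the amylose-forming enzyme of leaves (Os07g0412100), had 2715 and 2555 CPM in OX leaves, 1206 and 1199 CPM in KO leaves and 1935 and 1841 CPM in WT leaves. Its difference was smaller but again placed WT between OX and KO (log2 fold change 1.13 ± 0.05 SE, edgeR adjusted p = 1.70e-04).

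Among debranching enzymes, an isoamylase (Os08g0520900) had 11.7 and 13.1 CPM in OX leaves, 2.30 and 2.23 CPM in KO leaves and 4.34 and 4.73 CPM in WT leaves, a reciprocal pattern (log2 fold change 2.45 ± 0.17 SE, edgeR adjusted p = 8.32e-04). Isoamylase ISO3 (Os09g0469400) had 97.2 and 93.6 CPM in OX leaves, against 14.5 and 14.5 CPM in KO leaves (log2 fold change 2.72 ± 0.07 SE, edgeR adjusted p = 7.08e-05), while WT was close to KO. A branching enzyme I transcript (Os06g0726400) was higher by 2.04 ± 0.25 SE (adjusted p = 0.00962), a call lost without OX library 1 (adjusted p = 0.0538). Starch excess 4 (Os03g0107800), a phosphatase of starch breakdown, had 98.7 and 94.2 CPM in OX leaves, against 42.1 and 42.4 CPM in KO leaves (log2 fold change 1.19 ± 0.06 SE, edgeR adjusted p = 3.01e-04).

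The glucose-6-phosphate/phosphate translocator imports sugar phosphate into plastids that do not photosynthesise. Os07g0523400 had 60.3 and 68.8 CPM in OX leaves, against 5.48 and 6.25 CPM in KO leaves (log2 fold change 3.46 ± 0.13 SE, edgeR adjusted p = 1.40e-04), and Os07g0523600 and Os07g0523965 gave nearly the same values, with log2 fold changes of 3.28 ± 0.13 SE and 3.29 ± 0.13 SE. These loci carry the same description, and reads shared between near-identical copies cannot be told apart. Sucrose synthase 2 (Os03g0401300) had 30.1 and 25.5 CPM in OX leaves, against 3.07 and 2.89 CPM in KO leaves (log2 fold change 3.22 ± 0.16 SE, edgeR adjusted p = 2.98e-04).

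The falls included transport and cleavage of sucrose. A sucrose transporter (Os03g0170900), of the family that moves sucrose across membranes, had 12.9 and 15.2 CPM in OX leaves, 68.4 and 63.1 CPM in KO leaves and 36.3 and 40.5 CPM in WT leaves. It was lowest in OX and highest in KO (log2 fold change -2.23 ± 0.12 SE, edgeR adjusted p = 3.55e-04). A neutral invertase-like transcript (Os01g0332100), whose family splits sucrose, had 369 and 356 CPM in OX leaves, 943 and 925 CPM in KO leaves and 482 and 473 CPM in WT leaves, also reciprocal (log2 fold change -1.36 ± 0.04 SE, edgeR adjusted p = 8.70e-05). Another neutral invertase, Os04g0409900, moved the opposite way, with 64.4 and 57.2 CPM in OX leaves, 17.6 and 16.4 CPM in KO leaves and 24.2 and 23.9 CPM in WT leaves (log2 fold change 1.84 ± 0.09 SE, edgeR adjusted p = 3.15e-04). An AP2/EREBP factor annotated for starch biosynthesis (Os05g0121600) had 165 and 168 CPM in OX leaves, against 283 and 281 CPM in KO leaves (log2 fold change -0.76 ± 0.04 SE, edgeR adjusted p = 3.26e-04).

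**Figure D3:**
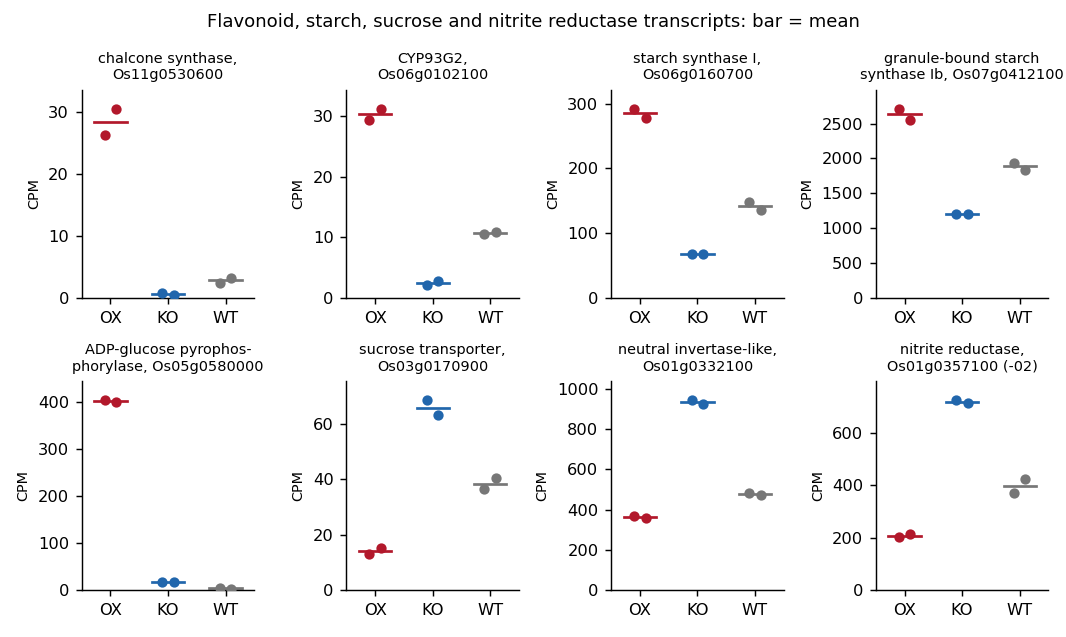
CPM of 8 transcripts of flavonoid, starch, sucrose and nitrite metabolism in each library (vertical axes), with OX, KO and WT from left to right, points for libraries and short lines for the mean of 2. WT lies between OX and KO in every panel except that of ADP-glucose pyrophosphorylase, where WT is lowest and the OX libraries reach 404 and 399.5 CPM.

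Photosynthesis transcripts were broadly but mildly lower in OX. Of 42 tested, 31 were lower (73.8%, against 25% over all tested) and 2 higher (4.8%, against 13.3%). The median log2 fold change was -0.63, not far below the -0.41 of all tested transcripts. The number lower shrank to 16 with TMM, 20 with DESeq2 size factors and 28 with plain totals, with 2 higher each time. Of the 31, 7 were lower by at least 2-fold. A Rubisco small subunit (Os12g0274700) had 6422 and 6710 CPM in OX leaves, 10614 and 10221 CPM in KO leaves and 16831 and 17340 CPM in WT leaves. A light-harvesting chlorophyll-binding protein of photosystem II (Os01g0600900) had 2947 and 3277 CPM in OX leaves, 7091 and 7144 CPM in KO leaves and 9712 and 10879 CPM in WT leaves. In both the order was OX, KO, WT from low to high, with differences between OX and KO of -0.67 ± 0.04 SE (adjusted p = 5.17e-04) and -1.19 ± 0.08 SE (adjusted p = 6.38e-04).

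The 22 kDa protein of photosystem II (Os04g0690800), known for the dissipation of excess light energy, went against the list with 78.7 and 73.6 CPM in OX leaves, 34.0 and 35.3 CPM in KO leaves and 80.9 and 91.4 CPM in WT leaves. Here OX stood near WT and KO was low (log2 fold change 1.14 ± 0.08 SE, edgeR adjusted p = 9.73e-04). The other rise was a PsbQ family protein with low counts (Os02g0578400), at 1.86 ± 0.34 SE, a call lost when any 1 of the 6 libraries was left out (adjusted p between 0.0541 and 0.144). Rubisco activase (Os11g0707000), with 16124 and 14515 CPM in OX leaves, against 18511 and 17378 CPM in KO leaves, was not called (log2 fold change -0.23 ± 0.06 SE, edgeR adjusted p = 0.095). The 10 called transcripts with the highest mean CPM were all lower in OX and included Rubisco, 5 chlorophyll-binding or photosystem proteins, carbonic anhydrase and a metallothionein. Their log2 fold changes lay between -1.19 and -0.28. The smallest of these, the chlorophyll-binding Os02g0197600, lost its call and turned to 0.10 with TMM and 0.04 with DESeq2 size factors.

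A smaller set of transcripts moved reciprocally around the wild-type level, meaning that OX differed from KO and that OX and KO differed from WT in opposite directions, each by a called difference. Of the tested transcripts, 58 (0.825%) were reciprocal with OX highest and 126 (1.79%) with OX lowest, which together made up 6.83% of the OX against KO calls. Against WT itself, 44.1% of the tested transcripts were called in OX leaves and 36% in KO leaves. The 3 comparisons share libraries, so their values are set side by side and not counted as separate evidence. In the 58 with OX highest, the median log2 fold changes were 2.02 for OX against KO, 0.99 for OX against WT and -0.83 for KO against WT. In the 126 with OX lowest, they were -1.87, -0.97 and 0.86. The WT libraries lay between the OX and KO libraries in all 184, which the rule itself nearly requires.

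These counts also depended on the processing. With TMM they were 134 and 57, with DESeq2 size factors 132 and 66, and with plain totals 62 and 109, for OX highest and OX lowest. Leaving out 1 library gave 33 and 76 without OX library 1, 33 and 91 without OX library 2, 26 and 49 without KO library 1, 28 and 45 without KO library 2, 32 and 69 without WT library 1, and 31 and 65 without WT library 2. The pattern held under all 13 alternatives for 17 transcripts with OX highest and 13 with OX lowest, and the transcripts described next are among these unless a number of alternatives is given.

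The reciprocal transcript with the largest difference between OX and KO was Os02g0772100, a conserved hypothetical protein (chr2:32591800-32593204). It had 39.7 and 39.5 CPM in OX leaves, 0.115 and 0.219 CPM in KO leaves and 1.20 and 0.964 CPM in WT leaves. The KO libraries held 3 and 6 counts, and the pooled counts, each divided by the pooled effective total of its group, were 235-fold (95% counting interval 124 to 514) higher in OX than in KO (log2 fold change 7.84 ± 0.28 SE, edgeR adjusted p = 1.16e-04). An LrgB-like protein (Os10g0578800) had 222 and 230.2 CPM in OX leaves, 18.6 and 18.1 CPM in KO leaves and 67.0 and 62.6 CPM in WT leaves, close to equal steps on the log scale on both sides of WT (log2 fold change 3.62 ± 0.06 SE, edgeR adjusted p = 3.66e-05; 1.80 for OX against WT and -1.82 for KO against WT). A UDP-glycosyltransferase family member (Os06g0289900), of enzymes that attach sugars to small molecules, had 34.8 and 35.7 CPM in OX leaves, 1.15 and 1.57 CPM in KO leaves and 4.49 and 6.41 CPM in WT leaves (log2 fold change 4.69 ± 0.26 SE, edgeR adjusted p = 3.97e-04).

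A lecithin:cholesterol acyltransferase family protein (Os02g0589000), related to enzymes that move fatty acids between lipids, had 45.5 and 46.5 CPM in OX leaves, 6.02 and 6.40 CPM in KO leaves and 15.9 and 16.3 CPM in WT leaves (log2 fold change 2.89 ± 0.09 SE, edgeR adjusted p = 9.24e-05). The MtN3 and saliva related transmembrane protein Os01g0700100 had 68.0 and 68.8 CPM in OX leaves, 13.5 and 12.9 CPM in KO leaves and 26.6 and 30.1 CPM in WT leaves (log2 fold change 2.38 ± 0.09 SE, edgeR adjusted p = 1.44e-04). In both, all libraries of a genotype stood clear of the other genotypes. Beside these, chalcone synthase, CYP93G2, starch synthase I and granule-bound starch synthase Ib, described with their pathways, kept their reciprocal pattern under all 13 alternatives. For further reciprocal transcripts named with their pathways, the pattern held under 10 of 13 and 12 of 13 for the Scarecrow-like Os01g0842200, 4 of 13 for cinnamate-4-hydroxylase, 6 of 13 for isoamylase, 8 of 13 for the sucrose transporter, 12 of 13 for the neutral invertase-like Os01g0332100, 7 of 13 for the neutral invertase Os04g0409900 and 7 of 13 for the response regulator Os09g0532400. It held under 7 of 13 for the nitrate transporter Os01g0547600 and 8 of 13 for the nitrate and chloride transporter Os03g0800000.

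With OX lowest, a class III peroxidase (Os02g0240300), of secreted enzymes that act on the cell wall, had 4.16 and 4.27 CPM in OX leaves, 55.2 and 57.6 CPM in KO leaves and 24.1 and 27.4 CPM in WT leaves (log2 fold change -3.74 ± 0.11 SE, edgeR adjusted p = 8.70e-05). The conserved hypothetical protein Os02g0129800 had 3.97 and 2.98 CPM in OX leaves, 69.2 and 75.1 CPM in KO leaves and 21.2 and 22.8 CPM in WT leaves (log2 fold change -4.38 ± 0.17 SE, edgeR adjusted p = 1.40e-04). A transcript similar to viviparous8 (Os03g0790600) had 5.89 and 5.93 CPM in OX leaves, 31.6 and 33.4 CPM in KO leaves and 10.7 and 12.9 CPM in WT leaves (log2 fold change -2.46 ± 0.13 SE, edgeR adjusted p = 3.86e-04). The WT libraries of these 3 lay apart from both other genotypes. A ferredoxin-nitrite reductase transcript (Os01g0357100), of the second step of nitrate assimilation, had 202 and 212 CPM in OX leaves, 724 and 713 CPM in KO leaves and 370.5 and 423 CPM in WT leaves (log2 fold change -1.80 ± 0.07 SE, edgeR adjusted p = 1.63e-04).

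The transcripts with OX lowest also included 4 described as amino acid carriers or transporters, singled out here after their values were seen. Os05g0424000 had 2.08 and 2.13 CPM in OX leaves, 49.0 and 46.1 CPM in KO leaves and 33.4 and 34.1 CPM in WT leaves (log2 fold change -4.49 ± 0.09 SE, edgeR adjusted p = 4.69e-05). Os01g0878400 had 6.24 and 6.99 CPM in OX leaves, against 53.8 and 52.0 CPM in KO leaves, Os12g0181600 had 51.4 and 55.3 CPM in OX leaves, against 172 and 172 CPM in KO leaves, and Os12g0181500 had 71.6 and 74.3 CPM in OX leaves, against 146 and 148 CPM in KO leaves. Their reciprocal pattern held under 7 of 13, 3 of 13, 9 of 13 and 7 of 13 alternatives in that order. A carrier of polar auxin transport, Os01g0919800, had 3.65 and 3.77 CPM in OX leaves, 115 and 113 CPM in KO leaves and 92.2 and 91.1 CPM in WT leaves (log2 fold change -4.94 ± 0.06 SE, edgeR adjusted p = 1.92e-05), and its pattern held under 7 of 13.

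A looser description asked only that both WT libraries lay between the OX and KO libraries. This held for 353 tested transcripts with OX highest (5.02%) and 645 with OX lowest (9.17%). Among the called transcripts it held for 267 of the 934 higher in OX (28.6%) and for 534 of the 1759 lower (30.4%).

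**Figure D4:**
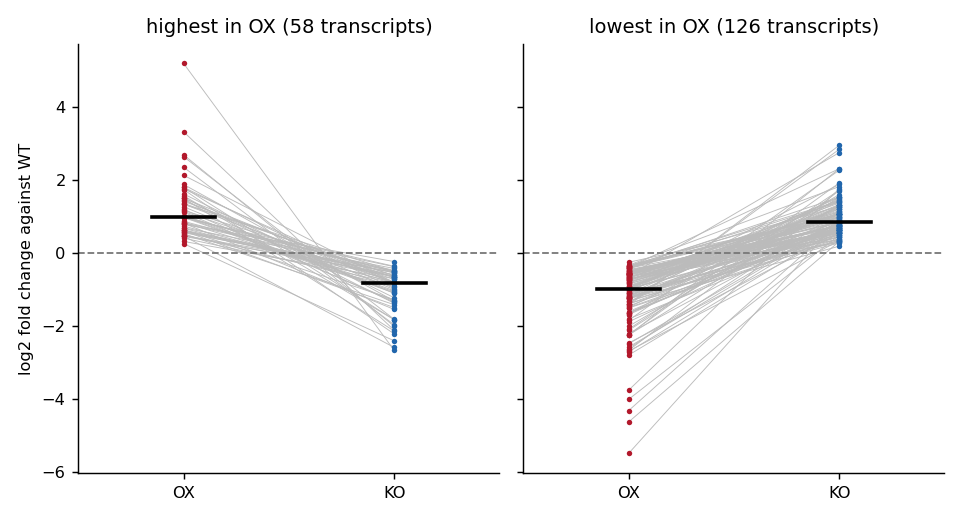
Log2 fold changes of OX against WT (red) and of KO against WT (blue) for the reciprocal transcripts, with a line joining the 2 values of each transcript and a thick bar at each median, for the 58 with OX highest (left panel) and the 126 with OX lowest (right panel). The rule itself puts all values of a column on 1 side of 0, and the medians are 0.99 and -0.83 in the left panel and -0.97 and 0.86 in the right panel.

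Jasmonate genes were split. Jasmonate is a wound and defence hormone made from membrane fatty acids, with lipoxygenases at the start and TIFY (JAZ) proteins as repressors of the response. Of 27 tested transcripts, 6 were higher in OX (22.2%, against 13.3% over all tested) and 8 lower (29.6%, against 25%). The median log2 fold change was -0.65. With the 3 other scalings the calls over all tested moved towards higher in OX. The jasmonate split was then 8 and 4 with TMM or DESeq2 size factors and 6 and 6 with plain totals, so the balance turned round with the scaling. Without OX library 1 or OX library 2 the number lower was 4, without KO library 1 it was 5, and without KO library 2 it was 3.

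The lipoxygenase Os12g0559200 had 2242 and 2352 CPM in OX leaves, 124 and 140.3 CPM in KO leaves and 68.8 and 93.3 CPM in WT leaves for its first transcript. OX was far above both other genotypes (log2 fold change 4.12 ± 0.18 SE, edgeR adjusted p = 3.34e-04). A neighbouring lipoxygenase locus, Os12g0559934, moved likewise with 103 and 122 CPM in OX leaves, against 7.67 and 9.03 CPM in KO leaves (log2 fold change 3.75 ± 0.19 SE, edgeR adjusted p = 3.39e-04), and reads shared between such loci cannot be told apart. A chloroplast lipoxygenase (Os08g0508800) went the other way, with 17.4 and 22.2 CPM in OX leaves, 104 and 107 CPM in KO leaves and 9.06 and 12.4 CPM in WT leaves (log2 fold change -2.41 ± 0.19 SE, edgeR adjusted p = 0.00155), and KO leaves held far more than WT. A TIFY protein (Os03g0402800) had 180.4 and 176 CPM in OX leaves, 394 and 383 CPM in KO leaves and 52.5 and 50.8 CPM in WT leaves, again with KO highest (log2 fold change -1.12 ± 0.05 SE, edgeR adjusted p = 1.63e-04).

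Abscisic acid genes serve the response to water shortage. Of 14 tested transcripts, 3 were higher in OX (21.4%, against 13.3% over all tested) and 5 lower (35.7%, against 25%). Their median of -0.34 was close to the -0.41 over all tested. Abscisic acid 8'-hydroxylase (Os02g0703600), which breaks the hormone down, had 52.2 and 56.0 CPM in OX leaves, 502 and 500.3 CPM in KO leaves and 19.3 and 23.4 CPM in WT leaves. The KO libraries were far above the others, and OX stood above WT (log2 fold change -3.21 ± 0.10 SE, edgeR adjusted p = 9.55e-05; 1.34 for OX against WT and 4.55 for KO against WT). The ABA-activated kinase SAPK2 (Os07g0622000) had 49.3 and 44.5 CPM in OX leaves, against 147 and 139 CPM in KO leaves (log2 fold change -1.61 ± 0.10 SE, edgeR adjusted p = 6.37e-04). An ABA/WDS-induced protein (Os01g0963600) had 316 and 326 CPM in OX leaves, 875 and 876 CPM in KO leaves and 829 and 849 CPM in WT leaves (log2 fold change -1.45 ± 0.04 SE, edgeR adjusted p = 7.96e-05), KO being close to WT. ABA aldehyde oxidase (Os07g0164900), of the last step of hormone synthesis, had 62.6 and 59.2 CPM in OX leaves, against 18.1 and 20.0 CPM in KO leaves (log2 fold change 1.68 ± 0.10 SE, edgeR adjusted p = 4.60e-04). With TMM or DESeq2 size factors 3 were higher and 4 lower.

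AP2/ERF factors, many of which respond to stress, had 12 of 27 tested transcripts lower in OX (44.4%, against 25% over all tested). Only 1 was higher (3.7%, against 13.3%), and the median was -0.76. The number lower was 12 under each of the 3 other scalings, while the number higher was 4, 4 and 2 with TMM, DESeq2 size factors and plain totals. The 1 higher was lost when any 1 OX or KO library was left out, and 2 were higher without WT library 1 or WT library 2. Dehydration-responsive element-binding protein 1B (Os09g0522000), a cold and drought factor, had 18.0 and 20.1 CPM in OX leaves, 50.9 and 51.2 CPM in KO leaves and 14.4 and 15.1 CPM in WT leaves (log2 fold change -1.42 ± 0.09 SE, edgeR adjusted p = 6.38e-04). Os02g0654700, annotated for the abiotic stress response, had 11.4 and 10.7 CPM in OX leaves, 36.7 and 39.0 CPM in KO leaves and 3.37 and 3.31 CPM in WT leaves (log2 fold change -1.78 ± 0.10 SE, edgeR adjusted p = 4.51e-04), and the ERF domain protein Os03g0191900 had 5.80 and 8.36 CPM in OX leaves, 44.0 and 42.1 CPM in KO leaves and 2.75 and 3.23 CPM in WT leaves (log2 fold change -2.60 ± 0.21 SE, edgeR adjusted p = 0.00124). In these 3, KO was the highest genotype, and OX was nearer to WT.

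WRKY factors, regulators of defence and senescence, were split. Of 42 tested, 10 were higher in OX (23.8%, against 13.3% over all tested) and 17 lower (40.5%, against 25%). The median was -0.70, and 12 were higher and 12 lower with TMM. The number higher was 5 when any 1 OX or KO library was left out, and the number lower was then 11, 11, 9 and 10 without OX libraries 1 and 2 and KO libraries 1 and 2. WRKY70 (Os05g0474800) had 5.10 and 6.49 CPM in OX leaves, 42.1 and 46.6 CPM in KO leaves and 2.52 and 2.22 CPM in WT leaves (log2 fold change -2.94 ± 0.16 SE, edgeR adjusted p = 4.26e-04). WRKY62 (Os09g0417800) had 12.8 and 14.2 CPM in OX leaves, against 2.26 and 2.63 CPM in KO leaves (log2 fold change 2.46 ± 0.25 SE, edgeR adjusted p = 0.00319), and WRKY64 (Os12g0116700) had 3.97 and 3.89 CPM in OX leaves, against 0.537 and 0.695 CPM in KO leaves (log2 fold change 2.66 ± 0.31 SE, edgeR adjusted p = 0.00545).

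NAC factors, with roles in organ boundaries, ageing and stress, had 4 of 28 tested higher (14.3%, close to the 13.3% over all tested). Lower were 12 (42.9%, against 25%), and the median was -0.92. The number higher was 2 when any 1 OX or KO library was left out, and the number lower was 7 without OX library 2. The NAC21/22-like Os08g0200600 had 2.93 and 3.45 CPM in OX leaves, 26.3 and 26.4 CPM in KO leaves and 43.1 and 45.6 CPM in WT leaves (log2 fold change -3.05 ± 0.12 SE, edgeR adjusted p = 1.41e-04). The NAM domain protein Os12g0123700 had 20.6 and 21.6 CPM in OX leaves, against 5.52 and 5.12 CPM in KO leaves (log2 fold change 1.99 ± 0.13 SE, edgeR adjusted p = 6.98e-04). A basic helix-loop-helix protein (Os01g0108400) had 152 and 144 CPM in OX leaves, against 36.2 and 39.5 CPM in KO leaves (log2 fold change 1.97 ± 0.07 SE, edgeR adjusted p = 1.35e-04) and was the 1 member higher of 26 tested in its family, against 10 lower.

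Nitrogen uptake and reduction was split. Of 23 tested transcripts, 7 were higher in OX (30.4%, against 13.3% over all tested) and 10 lower (43.5%, against 25%). In the authors' own KEGG pathway map of nitrogen metabolism, 2 of 11 tested transcripts were higher in OX and 7 lower, with a median of -0.49. On that map 2 were higher and 4 lower under each of the 3 other scalings. The median of the 23 was 0.40, but their split turned to 8 higher and 6 lower under each of the 3 other scalings. Without OX library 1 it was 4 and 5, and without KO library 1 or KO library 2 it was 4 and 6. Among those higher, a nitrate transporter similar to NRT2.7 (Os01g0547600) had 5.39 and 5.44 CPM in OX leaves, 0.23 and 0.256 CPM in KO leaves and 0.891 and 0.838 CPM in WT leaves, with WT between (log2 fold change 4.45 ± 0.27 SE, edgeR adjusted p = 5.46e-04). A nitrate and chloride transporter (Os03g0800000) had 57.5 and 66.5 CPM in OX leaves, against 21.6 and 22.5 CPM in KO leaves (log2 fold change 1.49 ± 0.09 SE, edgeR adjusted p = 6.21e-04), and an NAD(P)H nitrate reductase (Os02g0770800) had 177 and 201 CPM in OX leaves, against 84.5 and 83.8 CPM in KO leaves (log2 fold change 1.17 ± 0.08 SE, edgeR adjusted p = 7.09e-04).

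Among those lower, beside Os01g0357100, the ferredoxin-nitrite reductase Os02g0765900 had 5.42 and 5.17 CPM in OX leaves, against 22.4 and 22.6 CPM in KO leaves (log2 fold change -2.08 ± 0.15 SE, edgeR adjusted p = 9.05e-04), and the root isozyme of glutamine synthetase (Os03g0223400), which fixes ammonium, had 11.0 and 8.24 CPM in OX leaves, 92.6 and 88.4 CPM in KO leaves and 85.3 and 86.6 CPM in WT leaves (log2 fold change -3.23 ± 0.15 SE, edgeR adjusted p = 2.45e-04). In the nitrite reductase KO alone stood apart, and in the synthetase OX alone did.

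Of 18 phosphate starvation transcripts tested, 8 were called lower in OX, none higher and 10 were not called, with a median of -1.27. Over all tested transcripts 25% were lower. The numbers higher and lower were 3 and 5 with TMM, 3 and 6 with DESeq2 size factors and 2 and 7 with plain totals. The number lower was 3 without OX library 1, 5 without KO library 1 and 4 without KO library 2, and 1 was higher without WT library 1 or WT library 2. A phosphate starvation regulator (Os05g0488600) had 1.39 and 1.49 CPM in OX leaves, 22.4 and 22.4 CPM in KO leaves and 24.6 and 22.4 CPM in WT leaves (log2 fold change -3.96 ± 0.12 SE, edgeR adjusted p = 8.71e-05). An SPX domain protein (Os02g0202200), of a family of phosphate sensors, had 0.661 and 1.20 CPM in OX leaves, against 6.06 and 7.17 CPM in KO leaves (log2 fold change -2.82 ± 0.33 SE, edgeR adjusted p = 0.00522). The regulator-like Os04g0665600 had 2.68 and 3.42 CPM in OX leaves, 19.8 and 19.9 CPM in KO leaves and 10.7 and 11.8 CPM in WT leaves, a reciprocal pattern kept under 7 of 13 alternatives (log2 fold change -2.70 ± 0.17 SE, edgeR adjusted p = 5.70e-04).

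Of the metal homeostasis genes, 8 of 43 tested were higher in OX (18.6%, against 13.3% over all tested). Lower were 19 (44.2%, against 25%), and the median was -0.94. The number higher was 5 without OX library 2 or KO library 2, and the number lower was 12 without KO library 2. Nicotianamine synthase 3 (Os07g0689600), which makes a chelator of iron and other metals, had 1.80 and 1.43 CPM in OX leaves, 63.0 and 64.0 CPM in KO leaves and 67.5 and 75.0 CPM in WT leaves (log2 fold change -5.30 ± 0.14 SE, edgeR adjusted p = 7.81e-05). OX alone stood apart.

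Auxin transcripts were lower in 17 of 46 tested (37%, against 25% over all tested) and higher in 2 (4.3%, against 13.3%). The median was -0.77. Without OX library 1, KO library 1 or KO library 2 the number lower was 9, and without OX library 2 it was 11. The polar transport carrier Os01g0919800, given with the reciprocal transcripts, fell by 4.94 on the log2 scale. Another auxin efflux carrier (Os09g0554300) moved the other way, with 39.0 and 39.3 CPM in OX leaves, 11.3 and 12.3 CPM in KO leaves and 19.9 and 18.6 CPM in WT leaves (log2 fold change 1.73 ± 0.10 SE, edgeR adjusted p = 4.00e-04). The 2 carriers are family members by description, and both were reciprocal, under 7 of 13 and 12 of 13 alternatives. The other rise was a SAUR family transcript (Os10g0510500), with 197 and 203 CPM in OX leaves, against 120.2 and 115 CPM in KO leaves (log2 fold change 0.77 ± 0.05 SE, edgeR adjusted p = 5.86e-04).

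**Figure D5:**
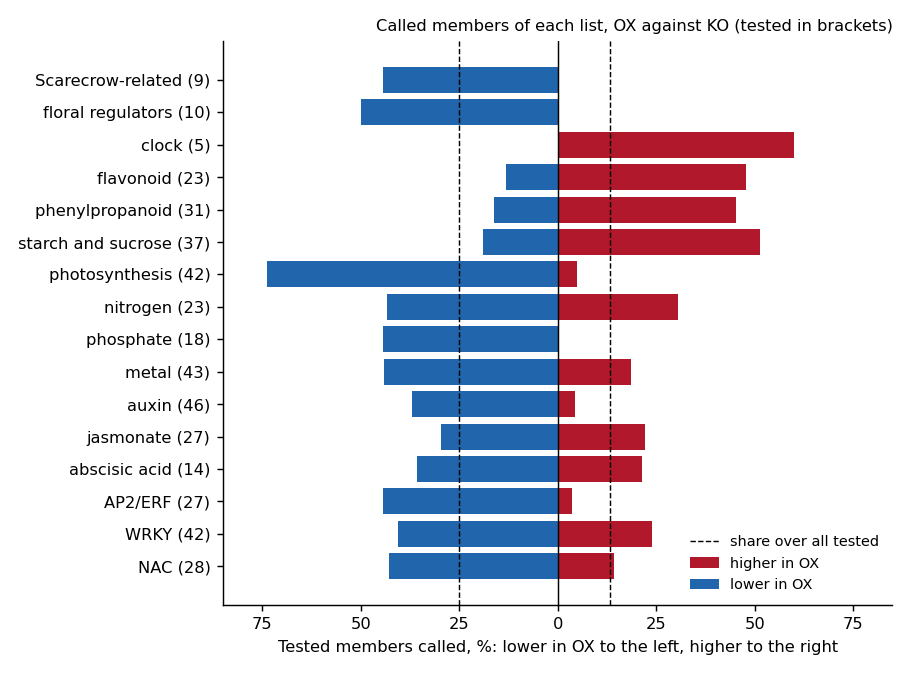
Share of the tested members of each list called lower in OX (blue, to the left) and higher in OX (red, to the right), in percent, with the number tested in brackets after the name of the list and dashed lines at the shares over all tested transcripts, 25% lower and 13.3% higher. Photosynthesis has 31 of 42 lower, starch and sucrose has 19 of 37 higher, and the Scarecrow-related list has 4 of 9 lower and none higher.

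Beside Os02g0772100, the largest rises in OX included a SAM-dependent carboxyl methyltransferase (Os02g0719600), with 22.2 and 23.5 CPM in OX leaves, against 0.153 and 0.292 CPM in KO leaves (log2 fold change 6.65 ± 0.37 SE, edgeR adjusted p = 4.28e-04), and a transferase family protein (Os12g0458100), with 147 and 148 CPM in OX leaves, 2.84 and 3.40 CPM in KO leaves and 1.39 and 1.51 CPM in WT leaves (log2 fold change 5.56 ± 0.12 SE, edgeR adjusted p = 4.69e-05). A sesquiterpene synthase (Os08g0167800), which makes volatile terpenes, had 1089 and 1041 CPM in OX leaves, 40.4 and 40.7 CPM in KO leaves and 11.5 and 11.9 CPM in WT leaves. OX was far above KO, and KO was above WT (log2 fold change 4.71 ± 0.05 SE, edgeR adjusted p = 1.92e-05; 6.50 for OX against WT and 1.79 for KO against WT).

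The largest fall was Os07g0162450, a protein with a DUF3778 domain of unknown function (chr7:3339394-3340629). It had 0.063 and 0.263 CPM in OX leaves, 63.0 and 64.1 CPM in KO leaves and 0.62 and 0.419 CPM in WT leaves. The OX libraries held 2 and 9 counts, WT was also near the floor, and KO alone was high. The pooled counts, divided by the pooled effective totals in the same way, were 381-fold (95% counting interval 213 to 764) lower in OX than in KO (log2 fold change -8.54 ± 0.49 SE, edgeR adjusted p = 7.09e-04). A CoA-thioester hydrolase similar to CHY1 (Os12g0264500) showed the same layout, with 0.346 and 0.848 CPM in OX leaves, 69.2 and 63.5 CPM in KO leaves and 0.232 and 0.209 CPM in WT leaves (log2 fold change -6.77 ± 0.41 SE, edgeR adjusted p = 8.03e-04).

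Other large falls had OX far below both KO and WT. Glutaredoxin-C1 (Os01g0368900), a small redox protein, had 2.21 and 2.08 CPM in OX leaves, 86.5 and 85.2 CPM in KO leaves and 138 and 141 CPM in WT leaves (log2 fold change -5.32 ± 0.07 SE, edgeR adjusted p = 1.92e-05). A WD-40 repeat protein (Os02g0740900) had 2.08 and 3.16 CPM in OX leaves, 119 and 117 CPM in KO leaves and 73.1 and 74.3 CPM in WT leaves (log2 fold change -5.49 ± 0.21 SE, edgeR adjusted p = 1.99e-04). An LSD1-type zinc finger protein (Os08g0130100) had 0.221 and 0.146 CPM in OX leaves, 17.1 and 14.4 CPM in KO leaves and 7.75 and 8.96 CPM in WT leaves, which put WT between, a reciprocal pattern kept under 3 of 13 alternatives (log2 fold change -6.40 ± 0.27 SE, edgeR adjusted p = 1.75e-04).

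Further lists were counted in the same way, beside 13.3% higher and 25% lower over all tested transcripts. Heat shock proteins and chaperones had 7 of 69 tested higher and 24 lower, and 13 higher and 16 lower with TMM. Lipid transfer and wax transcripts had 12 of 26 higher and 6 lower with a median of 1.02, but 5 to 7 higher when any 1 OX or KO library was left out and 2 or 3 lower when any 1 of the 6 libraries was. Ubiquitin ligases had 9 of 141 higher and 37 lower (26.2%, close to the 25% over all tested), and 17 and 27 with TMM. Without OX library 2 or KO library 2 the ubiquitin ligases had 5 higher, and without OX library 1 or KO library 2 they had 23 lower. Redox enzymes were even, with 19 higher and 19 lower of 83, and 24 and 10 with TMM. With any 1 OX or KO library left out the redox enzymes had 7 or 8 higher and 10 to 12 lower. Transcripts described as noncoding had 7 of 153 higher and 39 lower (25.5%, again close to the share over all tested), 14 and 22 with TMM, 14 and 25 with DESeq2 size factors, and 11 and 32 with plain totals. With any 1 OX or KO library left out the noncoding transcripts had 0 or 1 higher and 13 to 16 lower.

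Marker lists of other tissues and cell states were read beside these results. Dividing-cell transcripts had 9 of 51 tested higher and 10 lower, a split that was 13 and 4 with TMM and 5 to 7 higher and 4 or 5 lower when any 1 OX or KO library was left out, and their summed level was 1083 and 1082 CPM in OX leaves, 1078 and 1061 CPM in KO leaves and 1901 and 2041 CPM in WT leaves. Root-marked transcripts had 2 of 12 lower and none higher, with sums of 184 and 126 CPM in OX leaves, 340.3 and 311 CPM in KO leaves and 163 and 180.4 CPM in WT leaves. These 2 were the root glutamine synthetase and the root ferredoxin Os01g0860601. Secondary wall transcripts had 1 of 5 higher and none lower, with sums of 123 and 99.6 CPM in OX leaves, 36.9 and 44.3 CPM in KO leaves and 42.2 and 43.6 CPM in WT leaves. Meristem and young leaf base transcripts had 1 of 15 higher and 3 lower, and 1 lower without OX library 1. Pollen and anther transcripts had 2 of 6 higher and 2 lower, and 0 or 1 higher and 0 lower when any 1 OX or KO library was left out. No marker was at a count of 0 in any library, because the smallest deposited count is 1. The part of cell makeup and developmental stage in the differences between OX and KO was not tested.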

How the data were processed

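The study sequenced messenger RNA (TruSeq stranded libraries, per the labels' protocols) from leaves of OX, KO and WT rice, 2 libraries each. Per the file headers, the authors deposited for each transcript a read count, an FPKM value, a log2 normalised value, signed fold changes given as a score, and p-values for 3 comparisons. The estimated counts, as the authors deposited them, are whole numbers of at least 1 that equal the FPKM values turned back into reads and rounded up. The deposited log2 values are CPM of an effective library total plus 1. The authors' fold scores and p-values served only to see how the table was selected: each of the 7194 transcripts passes 2-fold and an unadjusted p-value of 0.05 in at least 1 comparison, out of 27384 transcripts in their adjustment. The submitters' processing notes name the build IRGSP-1.0. The aligner, the counter and its strand setting were not given in the sources used here.

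Counts were tested in R 4.3.3 with edgeR 4.0.16 (robust quasi-likelihood test, group as the only term, all 6 libraries in 1 fit). Library sizes were the authors' effective totals, 31743854 and 34214364 for OX, 26078166 and 27349913 for KO, and 25823009 and 23869522 for WT. The listed transcripts held 7376228 and 8192874 counts in OX, 8452027 and 8802235 in KO, and 9739821 and 9294810 in WT. The default filter on low counts removed 160 transcripts. P-values were adjusted by the Benjamini-Hochberg method over 27384 transcripts, and a call is an adjusted p below 0.05. Each SE comes from the log2 fold change and its F value. The fit was tested on simulated data, in which few called changes were false but most simulated 2-fold and 4-fold changes were not called. Far fewer transcripts were changed in the simulation than were called here, which makes the adjusted threshold stricter. Its shares therefore do not carry over to the real comparison. Alternatives were TMM factors, DESeq2 size factors and plain library totals, the DESeq2 1.42.0 Wald test, no filter, only the groups compared, a block for the replicate number, and each library left out. Intervals on ratios of counts are 95% and cover counting error only.

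Gene lists were drawn by words in the file's descriptions, and names that matched by letters alone were removed after the values were seen. The transcripts and lists were chosen with earlier results of these data known. Transcripts were named by a rule: the 10 largest rises and falls among calls with at least 5 CPM in the higher group, the 10 called with the highest mean CPM, the 10 reciprocal ones in each direction farthest from WT, all Scarecrow-related and floral ones, and the 2 largest calls in each direction of each other list. Further members of a pathway were added after their values were seen. Not every transcript under the rule is named in the text.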

Additional observations from a re-analysis of the deposited data

How the results depend on the processing

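The OX against KO calls numbered 934 higher and 1759 lower. Leaving out 1 library gave 497 to 880 higher and 1083 to 1705 lower, and reciprocal counts of 26 to 33 with OX highest and 45 to 91 with OX lowest. The reciprocal counts were 134 and 57 with TMM factors and 132 and 66 with DESeq2 size factors. Fitting only the groups compared gave 36 and 87. The cause of these moves was not tested. The DESeq2 Wald test called 1143 higher and 2074 lower, with 76 and 179 reciprocal, and leaving out the filter gave 933 and 1759. No transcript called between OX and KO was called in the opposite direction under any of these alternatives. Of the named transcripts, the chlorophyll-binding Os02g0197600 changed sign: its log2 fold change was -0.28 with the authors' totals, 0.10 with TMM and 0.04 with DESeq2 size factors, where it was not called. Libraries with the same number did not deviate together (r = 0.0187 between OX and KO, 0.0844 between OX and WT, and 0.0324 between KO and WT, across 4944 transcripts, which are not independent). The 2 OX libraries also differ in line, so these values cannot settle whether the numbers pair the samples. A replicate block gave 757 higher and 1551 lower, and 50 and 99 reciprocal. An alternative chosen after seeing the data kept the list entries that matched by letters alone: AP2/ERF factors then had 3 higher and 16 lower, phosphate genes 0 and 12, starch and sucrose 19 and 9, and dividing cells 11 and 20. Counting only calls of at least 2-fold, the numbers higher and lower were 2 and 7 for photosynthesis, 5 and 3 for jasmonate, 6 and 14 for heat shock, 1 and 11 for auxin, 10 and 2 for phenylpropanoids, 17 and 4 for starch and sucrose, and 4 and 8 for dividing cells. With 2 libraries a group, and low counts rounded up to at least 1, differences of transcripts near that floor are the least certain.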

Other observations

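Transcripts of the same gene did not always move together. Of 551 genes with at least 2 tested transcripts, 23 had all of them called higher in OX than in KO, 73 had all called lower, and 8 had calls in both directions. These 8 genes were singled out after their values were seen. Elongation factor 1 beta 2 (Os03g0406200), which takes part in protein synthesis, had a transcript with a log2 fold change of 0.99 and another with -2.55, while the sum over its transcripts was 30.3 and 30.0 CPM in OX leaves against 29.8 and 30.3 CPM in KO leaves. A gene similar to NADPH oxidoreductase (Os09g0459800) had transcripts at 1.58 and -2.49, with sums of 23.3 and 36.4 CPM in OX leaves against 11.5 and 14.9 CPM in KO leaves. A lipid-transfer protein 3 gene (Os11g0116200) had 1.12 and -0.79, with sums of 84.6 and 83.7 CPM in OX leaves against 47.1 and 49.1 CPM in KO leaves. How reads were shared among transcripts of a gene is not given in the sources used here.

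A pair of neighbouring loci on chromosome 1, singled out after their values were seen, had a like pattern. The hypothetical gene Os01g0873000 had 0.819 and 0.789 CPM in OX leaves against 15.7 and 18.0 CPM in KO leaves, and Os01g0872900, with a DUF635 domain, had 0.693 and 0.760 CPM in OX leaves against 13.2 and 14.3 CPM in KO leaves. Both were reciprocal, with WT between, a pattern kept under 5 of 13 and 10 of 13 alternatives. The NB-ARC domain genes Os11g0677101 and Os11g0676050, of a family of intracellular immune receptors, were reciprocal too, with log2 fold changes of -4.56 ± 0.36 SE and -4.16 ± 0.40 SE, and their pattern was kept under 8 of 13 and 3 of 13. Both were near the floor in OX, with 7 and 13 counts for the first and 3 and 5 for the second. A further NB-ARC gene, Os11g0605100, was reciprocal well above the floor, with 922 and 1000 counts in OX. Its log2 fold change was -1.37 ± 0.06 SE, and its pattern was kept under 11 of 13. The family as a whole did not move this way. Of 90 NB-ARC transcripts tested, 10 were higher in OX (11.1%, against 13.3% over all tested), 19 lower (21.1%, against 25%) and 61 not called. With TMM 20 were higher and 15 lower, beside 1330 higher and 1194 lower over all tested.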
